A study of Mus musculus with 59 samples.

Results

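Transcripts of 5 receptors for the brain's modulatory amines and acetylcholine were followed over the day in mouse medial prefrontal cortex: the serotonin receptor gene Htr1b, the histamine receptor gene Hrh3, the adrenergic receptor genes Adra1d and Adrb3, and the muscarinic acetylcholine receptor gene Chrm2. They are 5 of the 4484 genes in the table analysed, and all 5 were among the 4273 genes with enough reads to be tested. The genes were chosen by name, with the 24 h curves of these same libraries already known. Their 24 h values are therefore given as a description without a test, and tests are kept to the difference between the sexes, the difference of the 24 h curve between the sexes, and a 12 h component.

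RNA came from homogenised medial prefrontal cortex. The mice were adult, wild-type and of the inbred strain C57BL/6J, and no group carried a mutation, transgene or drug treatment according to the labels. Male and female mice were sampled at zeitgeber times (ZT) 2, 6, 10, 14, 18 and 22, which gave 12 groups of 5 libraries each, except ZT10 females with 4, and 59 libraries in all. By convention lights go on at ZT0 and off at ZT12, so the later hours are referred to as the dark phase, but the lighting itself is not in the labels. The labels give 44 libraries an animal number that recurs within their group and do not say that each library is a separate mouse, so a p-value here speaks for the spread among these libraries, part of which may be technical.

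The 59 libraries held from 6317420 to 13325019 reads in the table, with a median of 9015221. The 6 most abundant genes, all noncoding and led by Gm42418, took from 61.4% to 91.2% of them, which left a median of 1976730 reads for all other genes. Libraries whose titles carry the serial numbers 49 to 60 formed a group of their own. The first principal component of deviations from the group means held 26.5% of the variance, and their mean score on it was 20.3, while the mean scores of replicates 1 to 4, the libraries numbered 1 to 48, lay between -7.32 and 1.84. Cortical marker transcripts were present, with a mean of 10112 reads for Slc17a7, the vesicular glutamate transporter of cortical projection neurons, and 302 for the upper-layer factor gene Cux2. The neuropeptide genes Penk and Tac1, which are also abundant in striatum, had means of 95.7 and 40.7 reads.

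Serotonin, noradrenaline, histamine and acetylcholine reach the medial prefrontal cortex from small groups of neurons in the brainstem, hypothalamus and basal forebrain whose firing follows the sleep and wake cycle. Their receptors named here couple to G proteins. Those encoded by Htr1b, Hrh3 and Chrm2 act through the inhibitory Gi/o class, lower cyclic AMP and often sit on axon terminals, where they limit transmitter release. The receptor encoded by Adra1d acts through Gq and phospholipase C, and that encoded by Adrb3 acts through Gs and raises cyclic AMP and is best known from fat tissue. RNA from cortex does not sample the cell bodies of the neurons in brainstem, hypothalamus and basal forebrain. Receptor levels on their terminals were not measured.

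The genes lie at separate loci of the GRCm38 genome, with exons taken from GENCODE release M21. Htr1b (ENSMUSG00000049511) spans chr9:81628291-81633828 on the minus strand and Hrh3 (ENSMUSG00000039059) spans chr2:180099465-180104488, also on the minus strand. Adra1d (ENSMUSG00000027335) lies on the same chromosome at chr2:131545850-131562283 and Adrb3 (ENSMUSG00000031489) at chr8:27225776-27250616, both on the minus strand. Chrm2 (ENSMUSG00000045613) lies on the plus strand at chr6:36388084-36528414. All 5 share exonic bases with a gene on the opposite strand, from 142 of 6053 bases in Chrm2 to 852 of 4724 in Htr1b and 839 of 3376 in Adrb3. The strand setting of the counting is not given in the sources used here, so reads in those stretches cannot be assigned to one strand with certainty.

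The bases just before the transcription start are shown for Htr1b, Hrh3 and Chrm2. These are the 3 members found in the RefSeq promoter table of build GRCm38.p6. The 24 h curves fitted to them peaked late in the dark phase. The highest time mean was at ZT22 for Htr1b and Hrh3 but at ZT18 for Chrm2. Htr1b is given for chr9:81633833-81634082 on the minus strand, Hrh3 for the 169 bases of chr2:180104489-180104657 on the minus strand, and Chrm2 for chr6:36387834-36388083 on the plus strand, each read 5′ to 3′ toward the start. Capitals mark the GC box GGGCGG, on either strand.
Htr1b: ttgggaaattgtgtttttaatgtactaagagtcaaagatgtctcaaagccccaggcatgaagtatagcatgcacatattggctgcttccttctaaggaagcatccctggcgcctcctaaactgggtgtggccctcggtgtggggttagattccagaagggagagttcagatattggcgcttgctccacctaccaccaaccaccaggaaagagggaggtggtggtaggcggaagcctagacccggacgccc
Hrh3: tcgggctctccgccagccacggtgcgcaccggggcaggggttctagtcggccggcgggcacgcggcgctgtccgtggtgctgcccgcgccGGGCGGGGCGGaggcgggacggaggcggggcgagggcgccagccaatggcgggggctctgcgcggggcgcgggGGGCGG
Chrm2: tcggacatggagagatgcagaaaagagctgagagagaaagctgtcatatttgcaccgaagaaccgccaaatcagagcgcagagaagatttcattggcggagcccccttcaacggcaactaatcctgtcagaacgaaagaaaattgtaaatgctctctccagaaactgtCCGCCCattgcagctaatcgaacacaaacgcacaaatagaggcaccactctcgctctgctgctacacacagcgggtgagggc

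Base composition set these windows apart. The Hrh3 window was 82.8% G and C and held 3 GC boxes, a pair of which overlap by bases of the same run, whereas the Chrm2 window was 50% G and C with 1 GC box and the Htr1b window was 52.4% with none. The GC box was present in 32.7% of 32851 RefSeq promoter windows of 250 bases. None of the 3 windows held the E-box CACGTG, found in 6.02% of all promoters, the full cyclic AMP response element TGACGTCA, found in 1.55%, or its shorter form TGACG, found in 17.8%, on either strand. These counts describe the printed letters only.

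Hrh3 and Adra1d were the most abundant of the 5 transcripts per length of exon and Adrb3 the scarcest. On the scale of scaled reads per kilobase of exon, Adra1d averaged 306.2 ± 66.1, Hrh3 269.9 ± 76.9, Htr1b 118.3 ± 24.3, Chrm2 28.3 ± 9.7 and Adrb3 10 ± 5.9 (SD, n = 59 libraries). The order of the first pair was not the same in all libraries, since Adra1d exceeded Hrh3 in 41 of 59, and in 37 of the 48 numbered 1 to 48. Hrh3 exceeded Htr1b and Htr1b exceeded Chrm2 in 59 of 59 libraries, and Chrm2 exceeded Adrb3 in 56 of 59.

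Read numbers set how well each gene could be measured. Htr1b had from 53 to 392 reads per library with a median of 181, Hrh3 up to 817 with a median of 254, and Adra1d from 79 to 522 with a median of 183. Chrm2 had from 11 to 147 reads with a median of 56. Adrb3 had from 1 to 42 reads with a median of 9, and only 29 of 59 libraries reached 10 reads. On the log2 scale, the pooled SD within groups was 0.26 for Htr1b, 0.37 for Hrh3, 0.30 for Adra1d, 0.54 for Chrm2 and 0.85 for Adrb3. Counting alone would give SDs of 0.105, 0.085, 0.102, 0.186 and 0.434 for these genes in the same order, taken at each gene's mean reads. For Adrb3 many libraries lie below that mean, where counting error is larger.

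Htr1b, whose product curbs transmitter release from serotonergic and other terminals, had its highest values at the end of the dark phase and its lowest around the change from light to dark. Values here and for the other members are on the log2 scale of scaled reads plus 1. The ZT18 libraries spanned 9.01 to 9.52 (median 9.27) and those of ZT22 8.78 to 9.76 (median 9.40). The ZT10 libraries spanned 8.37 to 9.19 (median 8.94) and those of ZT14 8.55 to 9.25 (median 8.85). Of the 10 ZT22 libraries, 8 lay above all 9 ZT10 libraries, and 3 of the 9 ZT10 libraries lay below all those of ZT22. The values at ZT2 and ZT6 were in between, with means of 9.11 ± 0.28 and 9.12 ± 0.25 (SD, n = 10 each).

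The curve fitted to Htr1b peaked at ZT22.5, with an amplitude from mean to peak of 0.22 ± 0.05 (SE, n = 59) and a 1.35-fold range from trough to peak. In males alone the amplitude was 0.29 ± 0.06 with a peak at ZT23.8, and in females alone it was 0.19 ± 0.08 with a peak at ZT20.4. The male values at ZT22 were 9.31, 9.47, 9.76, 9.55 and 8.98, against 8.66, 8.63, 8.56, 9.08 and 8.76 at ZT14. Only the lowest ZT22 male fell within the range of the ZT14 males. Female values at ZT18 were 9.25, 9.09, 9.38, 9.49 and 9.52, against 8.94, 9.0, 8.37 and 9.06 at ZT10, with no overlap. Each pair of times is the highest and the lowest group mean of its sex, so a wide gap is favoured by the choice. The same pairs overlapped in the other sex. Males spanned 9.01 to 9.35 at ZT18 and 8.54 to 9.19 at ZT10, and females 8.78 to 9.50 at ZT22 and 8.55 to 9.25 at ZT14. Bulk RNA does not separate less RNA per cell from fewer cells of a type, which holds for every value in this account.

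Hrh3, whose product limits the release of histamine and other transmitters, had its highest values in the later dark phase. It spanned 9.48 to 10.47 at ZT18 (median 9.90) and 9.48 to 10.40 at ZT22 (median 10.13). At the other 4 times the medians lay between 9.43 and 9.58. The highest values of those times, such as 10.28 at ZT14 and 10.11 at ZT6, came from libraries numbered 49 to 60. So did the highest values at ZT18 and ZT22, 10.47 and 10.40. At ZT22, 6 of 10 libraries lay above all 9 of ZT10, and 5 of the 9 ZT10 libraries lay below all those of ZT22.

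The fitted amplitude of Hrh3 was 0.28 ± 0.07 (SE, n = 59), with a peak at ZT20.5 and a 1.48-fold range. It was 0.21 ± 0.09 with a peak at ZT21.6 in males and 0.37 ± 0.10 with a peak at ZT20.0 in females. The means over both sexes were 9.53 ± 0.36, 9.55 ± 0.40, 9.46 ± 0.30 and 9.50 ± 0.46 at ZT2, ZT6, ZT10 and ZT14, and 9.95 ± 0.32 and 10.03 ± 0.28 at ZT18 and ZT22 (SD, n = 10, with 9 at ZT10). Female values at ZT18 were 10.27, 9.91, 9.89, 10.05 and 10.47, all above the 4 ZT10 values of 9.32, 9.56, 9.51 and 8.96. These are the highest and the lowest female group means. The groups are not balanced for the libraries numbered 49 to 60, which averaged 0.55 higher for Hrh3. ZT10 females have none of them, and the 10.47 at ZT18 is from one. Male values overlapped, with 9.48 to 10.22 at ZT18 and 9.29 to 9.99 at ZT10.

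As background, 81 of the 4273 genes tested (1.90%) had an adjusted p under 0.05 for a 24 h rhythm over both sexes (limma, Benjamini-Hochberg), and 486 an unadjusted p under 0.05. The members were chosen by name with this same contrast already known, so they get no test of it. The amplitude of Hrh3 exceeded that of 94.3% of tested genes and that of Htr1b 90.7%, with a median amplitude of 0.08 over all genes. Chrm2 had a rank of 91.7% with an SE of 0.10, and Adrb3, measured from few reads, one of 94.3% with an SE of 0.18. A fitted amplitude grows with noise as well as with a rhythm, so a high rank need not mean a strong rhythm. The ranks describe genes chosen with this contrast known and are no test.

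**Figure D1:**
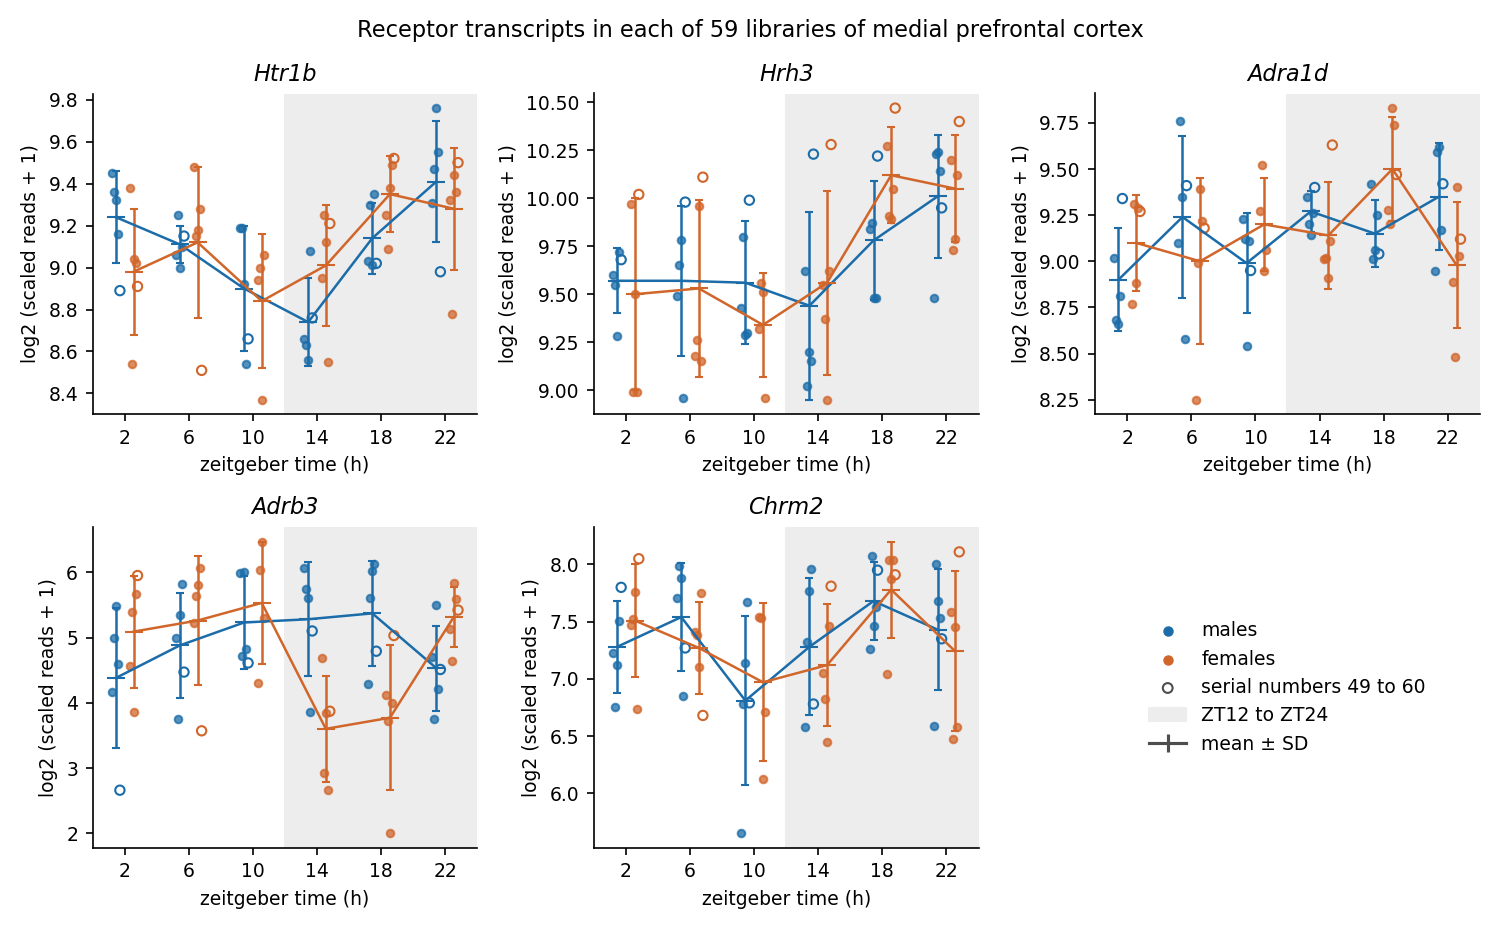
Log2 values of scaled reads plus 1 for the 5 receptor genes in each of 59 libraries against zeitgeber time, with males in blue left of females in orange, bars for mean ± SD, open circles for libraries numbered 49 to 60 and grey from ZT12 to ZT24. Htr1b and Hrh3 reach their highest means at ZT22, 9.35 and 10.03, the open circles lie high in most groups for Hrh3, and Adrb3 is low in females at ZT14 and ZT18.

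Among the adrenergic receptors, Adra1d, the Gq-coupled alpha receptor, varied less with time. Its means over both sexes were 9.0 at ZT2, 9.12 at ZT6, 9.08 at ZT10, 9.20 at ZT14, 9.33 at ZT18 and 9.17 at ZT22. The ZT18 values spanned 9.01 to 9.83 (median 9.26) and the ZT2 values 8.66 to 9.34 (median 8.95), and 4 of the 10 ZT18 libraries lay above all those of ZT2. The fitted amplitude was 0.12 ± 0.06 (SE, n = 59) with a peak at ZT16.9, larger than in 71.5% of tested genes. The ZT18 females had the highest group mean, with values of 9.28, 9.20, 9.83, 9.74 and 9.47, and the ZT2 males the lowest, with 9.02, 8.68, 8.66, 8.81 and 9.34.

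Adrb3, the Gs-coupled beta receptor, was measured from a few reads per library, so single values carry a large counting error. The ZT10 values spanned 4.31 to 6.46 (median 5.30) and the ZT14 values 2.67 to 6.07 (median 4.28). Only 1 of the 9 ZT10 libraries lay above all those of ZT14. Over both sexes the fitted curve peaked at ZT6.35, and its amplitude was 0.28 ± 0.18 (SE, n = 59). The fitted curve peaked at ZT13.5 with an amplitude of 0.50 ± 0.21 in males, and at ZT4.07 with an amplitude of 0.86 ± 0.25 in females. The difference between these curves did not pass its test over all genes (adjusted p = 0.741, limma).

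Chrm2, the Gi/o-coupled muscarinic receptor found on cholinergic terminals and cortical neurons, was lowest at ZT10 and highest at ZT18. The ZT18 values spanned 7.04 to 8.07 (median 7.89) and the ZT10 values 5.65 to 7.67 (median 6.79). Of the 10 ZT18 libraries 6 lay above all 9 of ZT10, and 5 of the 9 ZT10 libraries lay below all those of ZT18. The means at the remaining times were 7.39 ± 0.44 at ZT2, 7.40 ± 0.44 at ZT6, 7.20 ± 0.54 at ZT14 and 7.34 ± 0.59 at ZT22 (SD, n = 10 each). The 24 h amplitude was 0.23 ± 0.10 (SE, n = 59) with a peak at ZT21.4. It was 0.23 ± 0.14 with a peak at ZT21.4 in males alone, and the same to these digits in females alone.

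**Figure D2:**
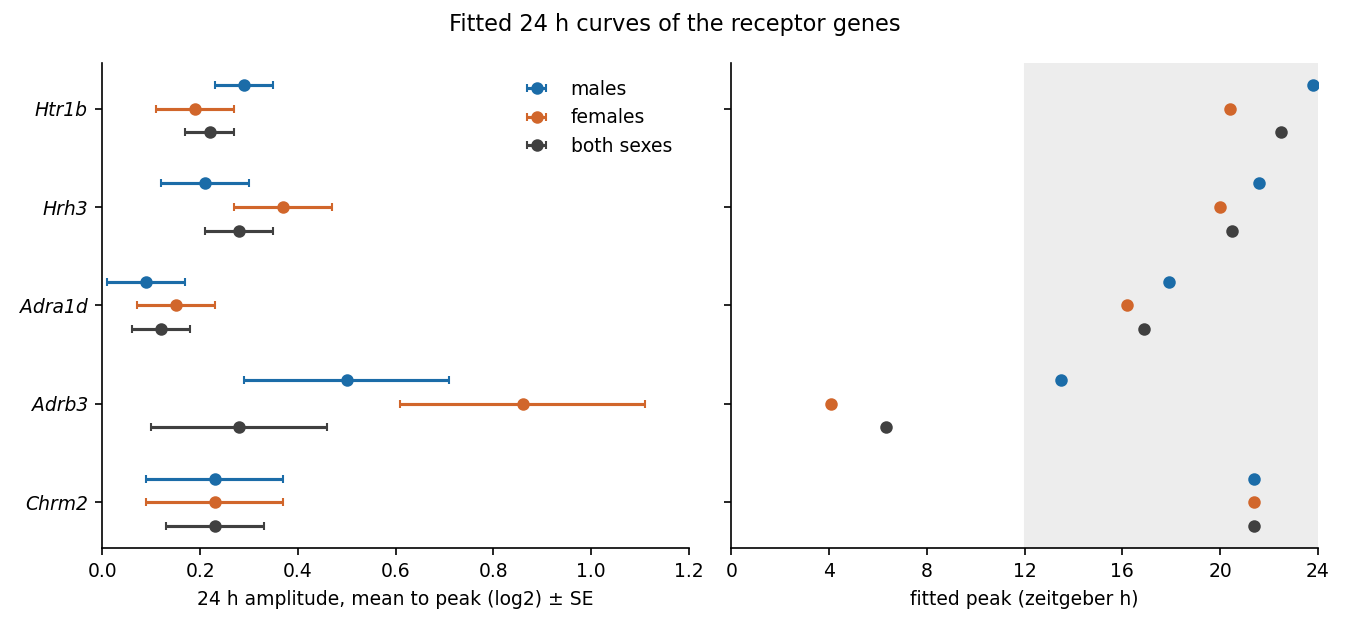
Left, 24 h amplitude from mean to peak on the log2 scale, with bars for ± SE, for the 5 genes in males (blue), females (orange) and both sexes (grey points); right, the fitted peak in zeitgeber hours, with grey from ZT12 to ZT24. The peaks of Htr1b, Hrh3, Adra1d and Chrm2 lie between ZT16.2 and ZT23.8 in every fit, while those of Adrb3 lie at ZT13.5 in males and ZT4.07 in females.

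None of the 5 genes passed the test of a sex difference, and 1 gene of the 4273 tested did (0.0234%; limma with time as a factor, Benjamini-Hochberg), the X-linked gene Ddx3x, which was lower in males. Limma voom on the recovered reads also called 1, and the smallest unadjusted p of the 5 members was 0.456, for Adrb3. Htr1b averaged 9.09 in males and 9.10 in females, a difference of -0.01 ± 0.07 (SE; 95% interval from -0.15 to 0.13). Hrh3 averaged 9.65 in males and 9.68 in females, a difference of -0.03 ± 0.09 (from -0.22 to 0.15). The interval for Adra1d ran from -0.16 to 0.16 around a difference of 0.00, with 9.15 in both sexes. Chrm2 averaged 7.34 in males and 7.31 in females, with an interval from -0.24 to 0.29. The few reads of Adrb3 left the widest interval, from -0.32 to 0.70 around a difference of 0.19 ± 0.25, with 4.94 in males and 4.76 in females. The adjusted p was 0.999 for each of the 5 (limma).

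The male minus female difference changed sign over the day in all 5 genes. Males were higher at 3 of the 6 times for Htr1b, Hrh3, Adra1d and Chrm2, and at 2 for Adrb3. The differences of Adrb3, the gene with the fewest reads, were the largest in size at each time. At ZT14 the males had 14, 13, 16, 5 and 11 reads of Adrb3 and the females 6, 2, 4, 3 and 9. At ZT18 the males had 5, 20, 23, 23 and 8 reads and the females 5, 3, 1, 7 and 15. At ZT22 the males had 6, 4, 8, 4 and 9 reads and the females 13, 6, 17, 12 and 17.

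On the scaled log2 values, which allow for depth, 4 of 5 ZT14 males lay above all ZT14 females, and 3 of 5 ZT18 males lay above all ZT18 females. Male minus female was 1.68 ± 0.53 at ZT14, with means of 5.28 in males and 3.60 in females, and 1.59 ± 0.61 at ZT18, with means of 5.37 in males and 3.77 in females (SE, n = 5 each). It was -0.79 ± 0.36 at ZT22, with means of 4.53 in males and 5.32 in females, and -0.71 ± 0.62 at ZT2, with 4.38 in males and 5.09 in females. At ZT6 and ZT10 it was -0.38 ± 0.57 and -0.30 ± 0.57. Summed over libraries, ZT14 males had 59 reads and females 24, ZT18 males had 79 and females 31, and ZT22 males had 31 and females 65.

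The difference of the 24 h curve between the sexes, given as the amplitude of the curve fitted to male minus female, was 1.29 ± 0.32 (SE) for Adrb3. Its unadjusted p was 0.000841 and its adjusted p was 0.741, so Adrb3 failed the correction over all genes (limma, Benjamini-Hochberg). No gene of the 4273 passed this test (0%), 180 had an unadjusted p under 0.05, and limma voom called none either. Without the libraries numbered 49 to 60 the size was 1.33 with an adjusted p of 0.914 (limma), the highest of all alternatives. The lowest, 0.00849, came with principal components of these same libraries as covariates. Those shrink the error without changing the estimate, so that value is too small and is not taken as a call.

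For the other members the difference of the curves was smaller. It was 0.23 ± 0.10 for Htr1b (unadjusted p = 0.0701, adjusted p = 0.741, limma), where male minus female was 0.26 ± 0.17 at ZT2, -0.27 ± 0.16 at ZT14 and -0.21 ± 0.11 at ZT18. It was 0.20 ± 0.13 for Hrh3 (adjusted p = 0.753, limma), with -0.34 ± 0.18 at ZT18. Adra1d had 0.08 ± 0.12 (adjusted p = 0.922, limma) and Chrm2 0.00 ± 0.20 (adjusted p = 1, limma). Without the libraries numbered 49 to 60 the sizes were 0.22 for Htr1b, 0.22 for Hrh3, 0.0264 for Adra1d and 0.102 for Chrm2, with adjusted p from 0.914 to 0.995 (limma).

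**Figure D3:**
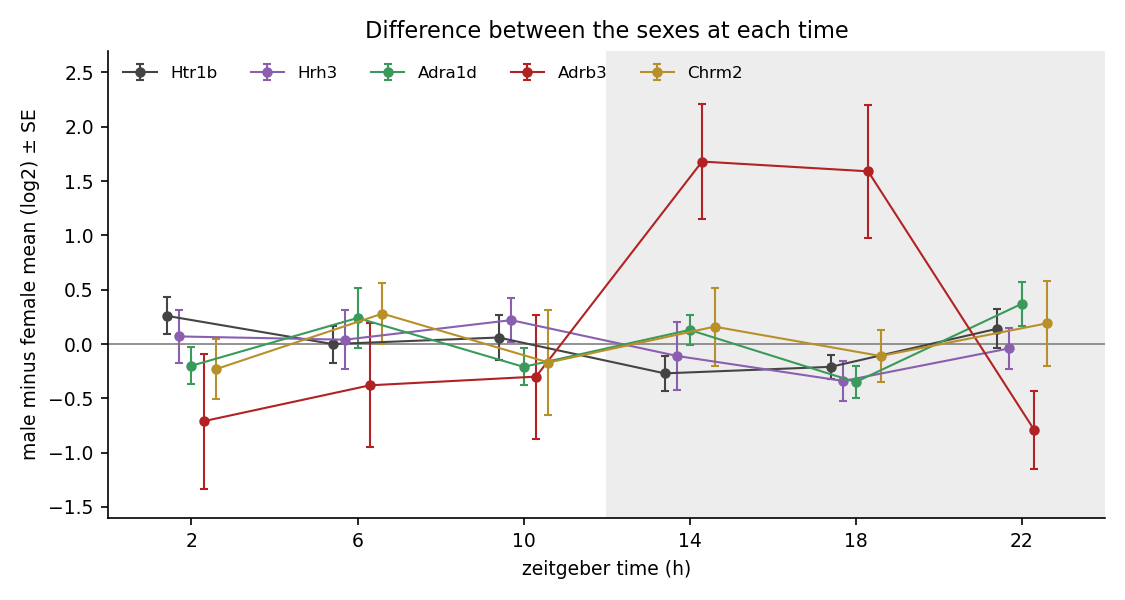
Male minus female group mean on the log2 scale, with bars for ± SE, at each zeitgeber time for the 5 genes (n = 5 per sex, 4 for ZT10 females), with grey from ZT12 to ZT24. Adrb3 lies at 1.68 and 1.59 at ZT14 and ZT18 and below 0 at the other 4 times, while the remaining genes stay between -0.35 and 0.37.

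A 12 h component, fitted beside the 24 h terms, did not pass the test for any of the 5 genes or for any of the 4273 (0%; limma, Benjamini-Hochberg). There were 291 genes at an unadjusted p under 0.05, and limma voom called none. Chrm2 had the smallest unadjusted p of the members, 0.0221, with a 12 h amplitude of 0.27 ± 0.09 (SE, n = 59) and an adjusted p of 0.625 (limma). Its peaks were at 5.19 h and 12 h later. Of the time means of Chrm2, ZT18 was the highest at 7.73 and ZT10 the lowest at 6.88. The mean of ZT6, 7.40, was close to those of ZT2, 7.39, and ZT22, 7.34. The 12 h amplitudes of Hrh3 and Htr1b were 0.16 ± 0.06 and 0.11 ± 0.05, each with an adjusted p of 0.625 (limma). Those of Adra1d and Adrb3 were 0.07 ± 0.06 and 0.32 ± 0.18, with adjusted p of 0.725 and 0.634 (limma). Without the libraries numbered 49 to 60 the 12 h amplitudes were 0.315 for Chrm2, 0.193 for Hrh3, 0.122 for Htr1b, 0.107 for Adra1d and 0.32 for Adrb3, with adjusted p from 0.366 to 0.546 (limma).

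The libraries numbered 49 to 60 had a higher mean than the rest for Hrh3 and a lower one for Htr1b. Hrh3 averaged 10.12 ± 0.23 (SD, n = 11) in those libraries and 9.57 ± 0.38 (SD, n = 48) in numbers 1 to 48, a difference of 0.55, which is about as large as the difference of 0.57 between the highest and the lowest time. Htr1b averaged 9.01 ± 0.32 in numbers 49 to 60 and 9.12 ± 0.30 in numbers 1 to 48. The differences, numbers 49 to 60 minus 1 to 48, were 0.17 for Adra1d, 0.21 for Chrm2 and -0.36 for Adrb3. Each of the 12 groups but ZT10 females has 1 such library. In numbers 1 to 48 alone the means of Hrh3 were 9.45, 9.43, 9.40, 9.31, 9.85 and 9.99 from ZT2 to ZT22 (n = 8 each), and the fitted amplitude was 0.302 with a peak at ZT21. The amplitude of Htr1b was 0.23 with a peak at ZT23.3 there, that of Adra1d 0.137, that of Chrm2 0.159 and that of Adrb3 0.442. The last of these was 1.5 times or more the value over all libraries.

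Members varied largely apart from one another between libraries of a group. Over the 59 deviations from the group means, Pearson's r was highest for Hrh3 with Adra1d, at 0.37, and for Adra1d with Chrm2, at 0.30. It was 0.02 for Htr1b with Hrh3, or 0.15 over the 48 libraries numbered 1 to 48, while the 12 group means of these genes had an r of 0.84. Adrb3 had an r of -0.21 with Chrm2 and of 0.18 with Htr1b. Without the libraries numbered 49 to 60 these were -0.38 and -0.11, and the r of Hrh3 with Adra1d was 0.31. Deviations of one library share its depth and its dissection, and the correlations are descriptions without a test.

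Hrh3 varied between libraries together with some markers of glutamatergic neurons and, less closely, with some of GABAergic neurons, which are given further below. Of the listed markers 3 were used, Slc17a7, Cux2 and Fezf2, and their summed level ran from 14.43 to 15.37 over libraries on the log2 scale. The deviations of Hrh3 had an r of 0.86 with it over 59 libraries and of 0.78 over the 48 numbered 1 to 48, with 0.85 for Slc17a7 alone, 0.78 for Cux2 alone and 0.36 for Fezf2 alone. Slc17a7, with a mean of 10112 reads against 302 for Cux2 and 321 for Fezf2, makes up most of the sum. For Htr1b the same r was -0.05 and 0.13. The time means of the marker sum ran from 14.86 to 14.98, a range of 0.12, and none of the 3 markers was called rhythmic. With that sum as a covariate, an alternative chosen after seeing the data, the amplitude of Hrh3 was 0.281 ± 0.0371 with a peak at ZT21.1.

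Adra1d varied together with some markers of GABAergic neurons, and had an r of 0.41 with the glutamatergic sum. Of 10 such markers 8 were tested, and their summed level had an r of 0.71 with Adra1d over 59 libraries and of 0.70 over 48. The r with Lamp5, a marker of a class of cortical interneurons, was 0.72, with Gad1 0.59, with Gad2 0.56 and with Slc32a1 0.51. For the other 4 it was 0.13 for Npy, 0.04 for Vip, 0.04 for Crh and -0.01 for Calb2. Hrh3 had an r of 0.53 with the same sum over 59 libraries and of 0.48 over 48. By marker, the r of Hrh3 was 0.51 for Gad2, 0.48 for Slc32a1, 0.48 for Npy and 0.45 for Gad1. It was 0.37 for Lamp5, 0.20 for Calb2, -0.09 for Crh and -0.25 for Vip. The time means of the sum ranged over 0.21. With this sum as a covariate the amplitude of Adra1d was 0.124 and that of Hrh3 0.316.

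**Figure D4:**
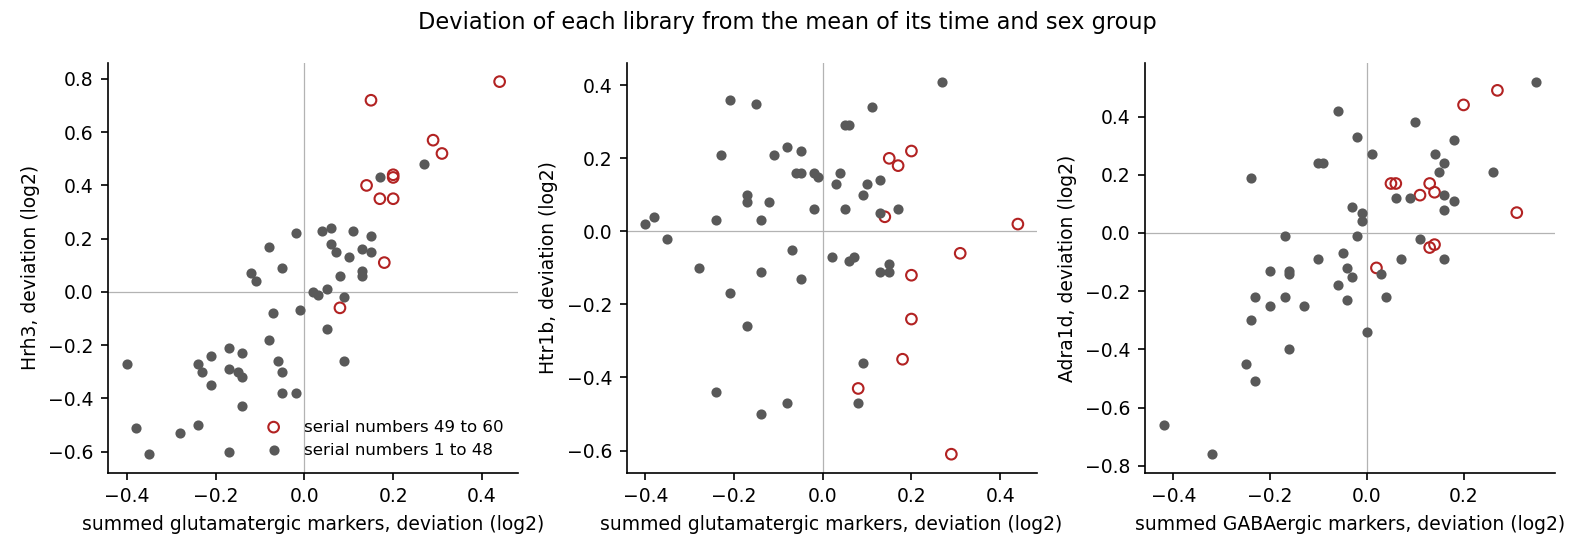
Deviation of each of 59 libraries from its group mean on the log2 scale, for Hrh3 and Htr1b against the summed level of 3 glutamatergic markers and for Adra1d against that of 8 GABAergic markers, with open red circles for libraries numbered 49 to 60. The r is 0.86 for Hrh3, -0.05 for Htr1b and 0.71 for Adra1d.

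The markers of other cell types gave r of either sign. The 2 tested of 5 microglial markers, P2ry12 and Tmem119, had a summed r of -0.43 with Hrh3, -0.49 with Adra1d and -0.40 with Chrm2, and of -0.34, -0.37 and -0.30 without the libraries numbered 49 to 60. The 4 tested astrocyte markers of 6 had an r of 0.14 with Hrh3 and of -0.36 with Chrm2, and of 0.09 and -0.34 without those libraries. C1ql1 had an r of 0.27 with Htr1b. For C1ql1 (precursors of oligodendrocytes), Penk and Tac1 (also striatal) and Lum (leptomeninges), the largest r with any member was 0.39, that of Penk and Tac1 with Hrh3. The listed markers of mature oligodendrocytes, endothelial cells, choroid plexus and blood were not analysed here. None of the tested markers was called for a 24 h rhythm, a sex difference, the difference of the curve or a 12 h rhythm. Over all 4273 genes tested the calls numbered 81, 1, 0 and 0 in the same order. The part of cell composition in the members' time courses was not tested beyond the covariate fits above.

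The genes whose 12 group means most resembled those of each member were found over all tested genes with a mean of at least 20 reads. Picking the highest of many r over only 12 means gives high values by selection, also for unrelated genes. The r over 12 groups given for each member are therefore no test of a link. For Htr1b they were Hspa2, Pdia6 and Efcab14, with r of 0.93, 0.92 and 0.89 over 12 groups. Over the 59 libraries these r were 0.33, 0.57 and 0.32. Pdia6, an enzyme gene of protein folding in the endoplasmic reticulum, peaked at ZT22.4 with an amplitude of 0.22 ± 0.03, and Hspa2, a heat shock protein gene, peaked at ZT21.8 with 0.14 ± 0.08.

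For Hrh3 the most alike were Smg6, Hlf and Jun, with r of 0.95, 0.93 and 0.89 over 12 groups and of 0.46, 0.81 and 0.70 over 59 libraries. Smg6 encodes a nuclease of nonsense-mediated decay, Hlf is a clock output transcription factor gene and Jun an immediate early gene. The amplitudes of Hlf and Jun were 0.17 ± 0.04 with a peak at ZT19.8 and 0.27 ± 0.04 with a peak at ZT20.2.

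Adra1d was most like the syntaxin gene Stx2, the histone methyltransferase gene Setd1b and Adcy9, with r of 0.84, 0.81 and 0.80 over 12 groups, while over 59 libraries that of Stx2 was -0.09 and that of Adcy9, an adenylyl cyclase gene, 0.68. Ccdc43, the integrin gene Itga7 and Blcap each had an r of 0.84 with Adrb3 over 12 groups and of 0.31 to 0.39 over 59 libraries. Chrm2 was most like Gpr155, Trip10 and Ift74, at 0.93, 0.89 and 0.85 over 12 groups and 0.48, 0.38 and 0.16 over 59 libraries.

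Of 33 other monoamine, histamine and muscarinic receptors listed, 3 were in the table, and none of these 3 was called for a 24 h rhythm or in the other 3 tests. Over all genes tested, 1.90% were called for a 24 h rhythm, 0.0234% for a sex difference and none in the remaining tests. The lack of a call among 3 genes therefore says little about them. Htr1a, whose product is a further Gi/o-coupled serotonin receptor, had an amplitude of 0.09 ± 0.05 (adjusted p = 0.662, limma). Its fitted peak was at ZT7.42, a time that so small an amplitude leaves poorly determined. Htr1a averaged 8.62 in males and 8.75 in females, a difference of -0.13 ± 0.07 with an unadjusted p of 0.0491 and an adjusted p of 0.999 (limma). Adra2c, a Gi/o-coupled adrenergic receptor gene, had an amplitude of 0.07 ± 0.06 (adjusted p = 0.956, limma), and Htr3a, which encodes a serotonin-gated channel of interneurons, 0.07 ± 0.11 (adjusted p = 0.996, limma).

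Downstream, 17 of 49 listed G protein and effector genes were tested and none was called for a 24 h rhythm, beside 1.90% of all genes tested. The adjusted p of the 17 ran from 0.394 to 0.999 (limma). Their median amplitude was 0.07, beside 0.08 over all genes tested, and 3 of the 17 had an unadjusted p under 0.05, beside 486 of the 4273. Kcnj3, a subunit of the potassium channel opened by Gi/o-coupled receptors, had the largest amplitude, 0.14 ± 0.05 with a peak at ZT12.0. Adcy9 had 0.11 ± 0.04 with a peak at ZT15.9 and the G protein subunit gene Gnb4 0.11 ± 0.04 with a peak at ZT7.59.

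Of 20 listed regulators of receptor signalling 7 were tested and none was called for a 24 h rhythm. Over all genes tested the share called was 1.90%, so none among 7 says little about this list. The median amplitude of the 7 was 0.11, beside 0.08 over all genes tested. An unadjusted p under 0.05 (limma) was found for 1 of the 7, beside 486 of the 4273. Rgs20, whose product speeds the shutting off of Gi class G proteins, had the smallest adjusted p of them, 0.349 (limma), with an amplitude of 0.11 ± 0.04. S100a10, whose product binds the receptor encoded by Htr1b, had 0.16 ± 0.07 with a peak at ZT5.80 (adjusted p = 0.531, limma). Neither list had a gene called for a sex difference, a difference of the curve between the sexes or a 12 h rhythm. The 23 listed genes for making, moving and breaking down the ligands were not analysed here.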

How the data were processed

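The table held 59 libraries of mouse medial prefrontal cortex. Per the labels, total RNA from the Qiagen RNeasy Plus Micro kit went into Takara SMART Stranded Total RNA libraries. FastQC, HTSeq, DESeq2 and build GRCm38 are named in the submitters' processing notes without versions, and the aligner, annotation release and strand setting are not given in the sources used here. What the authors deposited is, for each gene and library, the log2 of scaled reads plus 1. Whole reads were recovered from their steps, within 6.9e-06 of a whole number for values up to 2000 reads, and served for depth, filters and 1 alternative. GENCODE M21 gave symbols to 4465 of 4484 genes.

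A gene needed 10 reads in 4 libraries to be tested, which 4273 did. The tests used limma 3.58.1 (R 4.3.3; trend and robust options on) on the log2 values, and the Benjamini-Hochberg adjustment covered the whole set of tested genes, at 0.05. Rhythms were cosine and sine terms of 24 h, with sex as a covariate, and the 12 h terms were added to these. Sexes were compared with time as a factor. Replicates were numbered by the run of 12 serial numbers in the titles, where 54 is absent. Within groups no pair of libraries agreed within sampling noise (chi-square per degree of freedom of 4.27 or more over 116 pairs). Scripts were tested on simulated data. Alternatives were other scalings and filters, limma voom, covariates and leaving out libraries.

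The members, gene lists and tests were chosen with earlier results of these data known. Named besides the members are the 3 tested genes closest to each in their 12 group means, predicted genes passed over, and genes of the fixed lists; Ddx3x was named after its values were seen. Upstream sequences come from RefSeq, GRCm38.p6, for 3 of 5 members. Some listed marker genes are not reported here.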

Additional observations from a re-analysis of the deposited data

Results flagged for a closer look

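In 3 of 60 sets of a member and a group, 1 library lay far from the others of its group by Dixon's ratio, a rule that flags about 1 in 20 groups by chance. Htr1b in ZT22 females was lowest in replicate 2, at 8.78 from 110 reads, with the other 4 libraries between 9.32 and 9.50. Adra1d in ZT14 females was highest in replicate 5, at 9.63 from 522 reads, with the others between 8.91 and 9.11, and this library is one of those numbered 49 to 60. Chrm2 in ZT18 females was lowest in replicate 1, at 7.04 from 40 reads, with the others between 7.87 and 8.04. Group means that hold these libraries, among them the highest group of Chrm2, shift with them.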

How the results depend on the processing

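All 5 members kept their side of the threshold in the sex comparison under every alternative run. Its small differences changed sign for Adra1d with limma voom (-0.00902) and the replicate block (-0.00416) and for Chrm2 with voom (-0.00777). Leaving out 1 library or 1 replicate number gave -0.0664 to 0.0203 for Htr1b, -0.0917 to 0.00467 for Hrh3, -0.0661 to 0.0557 for Adra1d, -0.0125 to 0.274 for Adrb3 and -0.069 to 0.16 for Chrm2, and leaving out numbers 49 to 60 gave 0.0356 for Htr1b and 0.363 for Adrb3. Genes called numbered 2, against 1, with the replicate block and with the first 2 principal components as covariates. Those components, taken from deviations from the group means of these same libraries, lower the residual spread without changing the estimates. With them 720 genes had an adjusted p under 0.05 for the difference of the curve between the sexes. There were 962 for the 12 h rhythm and 359 for the 24 h rhythm. Adrb3 (adjusted p = 0.00849, limma) was among the first, and Hrh3 (0.00593) and Chrm2 (0.0311) among the second. Noise shared by libraries is taken out of the error but stays in the estimates, so these p-values are too small. No member is taken as called from them. Same-numbered libraries had a mean r of 0.107 (-0.494 to 0.601, 319 pairs) and others of -0.0264, so not every pair deviated together, although replicate 5 stood apart as a whole. The replicate block raised the number of genes with a 24 h rhythm by less than 1.5 times over 81, and gave an r of 0.19 for Htr1b with Hrh3, and changed no other call of a member. Without the libraries numbered 49 to 60 the r of Htr1b with Adrb3 was -0.11 and of Adrb3 with Chrm2 -0.38. Leaving out libraries gave 35 to 96 genes with a 24 h rhythm, where fewer libraries were fitted, and 52 without numbers 49 to 60, against 81; the amplitude ran from 0.173 to 0.271 for Htr1b, 0.224 to 0.318 for Hrh3, 0.0887 to 0.175 for Adra1d, 0.195 to 0.442 for Adrb3 and 0.159 to 0.306 for Chrm2. Adrb3 dropped out under a filter of 20 reads in 30 libraries, and its depth limits any statement about single groups.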
